A study of Mus musculus with 4 samples.

Results

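Enzymes that write, read and erase marks on histones and DNA were examined in satellite cells, which repair skeletal muscle as its stem cells, from young and aged mice. The group comprised 47 named genes of polycomb repression, histone methylation and demethylation, histone deacetylation, the sirtuins, DNA methylation, arginine methylation and histone acetylation. They were taken by symbol from the platform annotation of the Affymetrix arrays, and all 47 were found among the 18193 genes measured, through 117 probe sets that name 1 gene each. Suv420h1 is listed there under its newer symbol, Kmt5b. Cells came from the hindlimb muscle of C57BL/6J mice aged 3 to 6 months (young) or 20 to 25 months (aged), were sorted on the surface proteoglycan syndecan-4 (Syn-4), and received no treatment that the labels name. Each of the 4 arrays holds the RNA of 1 pool of mice, with 2 independent pools per age, so the mice within a pool are averaged. A pool held 4 to 8 mice by the series text, or 6 to 8 by the sample labels.

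Chromatin regulators set which genes a resting stem cell can switch on. Polycomb complexes keep developmental genes silent, histone methyltransferases and demethylases place and remove methyl groups on histone tails, and deacetylases and sirtuins remove acetyl groups. In satellite cells Ezh2 is known for sustaining self-renewal, Sirt1 for linking metabolism to histone acetylation in quiescence, and Suv420h1 for maintaining compacted chromatin in the quiescent state.

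Every value below is the mean over a gene's probe sets on the deposited scale, which is taken as log2 and has the middle of each probe set's 4 arrays at 0. A value is therefore relative and not a level, and 1 gene's value cannot be set against another's. Over several probe sets the mean need not have its own middle at 0. For a gene with 1 probe set, the middle pair of values is equal and opposite by construction. Differences are aged minus young, with the standard error of the limma fit after ± (n = 2 pools per age).

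Cell type markers also differed between young and aged pools. In aged pools all 16 measured fibre markers of mature muscle were lower, with a median difference of -2.84. Their per-pool medians were 1.28 and 1.40 in young pools and -1.37 and -1.33 in aged pools, with no overlap. In the aged pools 8 of 10 macrophage markers were lower (median -1.10), while 10 of 10 pericyte and smooth muscle markers (median 1.05) and 8 of 9 fibro-adipogenic markers (median 0.90) were higher. Of lymphocyte markers, 6 of 7 for T and NK cells (median 0.67) and 5 of 5 for B and plasma cells (median 0.98) were higher, as were 4 of 4 Schwann cell markers (median 1.01), and 4 of 6 neutrophil markers were lower (median -0.21). Cell division markers were higher in 11 of 14 cases (median 0.32), and none of them had an unadjusted p under 0.05. All 14 satellite cell markers were measured, 8 higher and 6 lower in aged pools, with a median of 0.05 that leaves out large single differences. Pax7, the factor that defines satellite cells, stood at -1.39 and -1.24 in young and 1.08 and 0.90 in aged pools (2.31 ± 0.36, adjusted p = 0.150, limma). Myf5, a factor of committed myogenic cells, stood at -0.83 and -0.90 in young and 0.83 and 2.55 in aged pools (2.56 ± 0.63, adjusted p = 0.288). Neither overlapped between ages, both had an unadjusted p under 0.05, and both are named after their values were seen. Summed marker levels and markers at 0 cannot be given on a centred scale. The part of these shifts in any difference below was not tested, and in sorted bulk cells fewer cells of a type and less RNA per cell cannot be told apart.

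**Figure D1:**
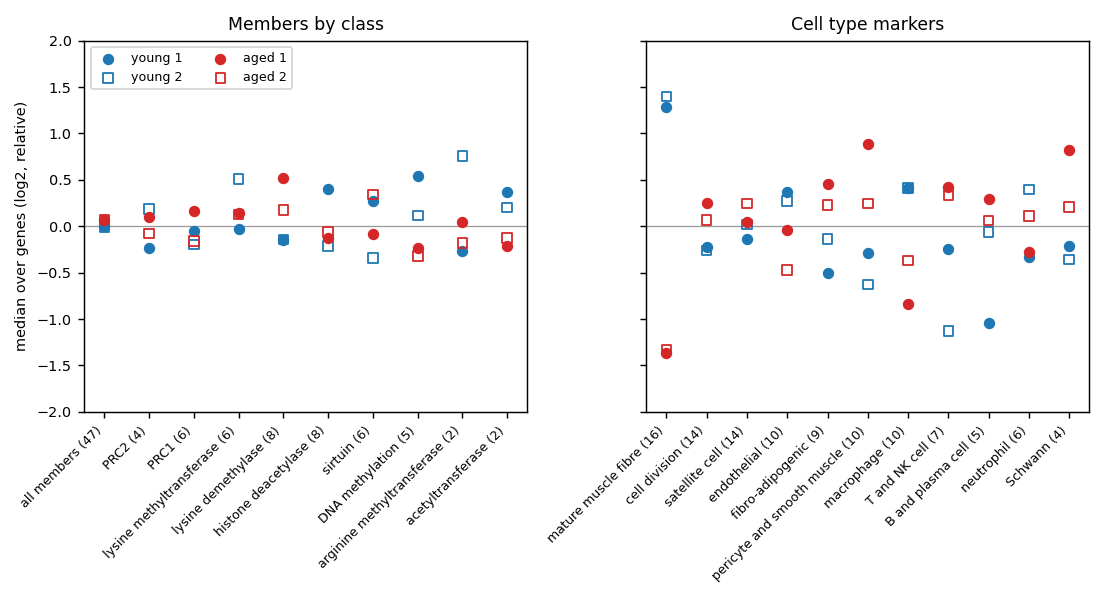
Median value over genes (vertical axis, log2, with each probe set's middle at 0) in each of the 4 pools for the 47 chromatin regulators by class (left) and for cell type markers (right), with the number of genes in brackets; each point is 1 pool. The median over all 47 lies between -0.01 and 0.07 in every pool, while the fibre markers lie at 1.28 and 1.40 in young and at -1.37 and -1.33 in aged pools.

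Higher and lower values were nearly balanced among the chromatin regulators. Of the 47, 22 were higher and 25 lower in aged pools (53.2% lower, against 46.2% of all genes). Their median difference was -0.02, against 0.05 over all genes. That median was 0.11 without young replicate 1 and -0.12 without young replicate 2. With limma, 0 of 47 passed an adjusted p of 0.05, as did 0% of all genes. At an unadjusted p under 0.05 there were 7 members, or 14.9%, against 9.04% of all genes. The 4 lower members were Bmi1, Setd7, Sirt2 and Sirt7 (8.51% of members, against 6.19% of all genes), and the 3 higher ones were Suv39h2, Kdm1a and Sirt1 (6.38%, against 2.85%). These shares stand on few genes. Without aged replicate 1 there were 2 lower and 0 higher members, without aged replicate 2 there was 1 lower and 4 higher, and without young replicate 2 there were 3 lower and 1 higher. The 3 higher members became 1 with the median of a gene's probe sets and 5 with the probe set of largest SD.

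The ages did not overlap in 20 of 47 members, or 42.6%, against 36.8% of all genes. Aged pools lay above young in 12 of them and below in 8, against 19.9% and 16.9% of all genes. In 29 of 47 members (61.7%, against 75.1% of all genes) the gap between the 2 pools of one age was larger than the difference between ages. Differences beyond 1, a doubling or halving if the base is 2, were seen in 10 members (21.3%, against 14.6% of all genes). Over the members, the root mean square distance was 0.899 between the young pools, 0.713 between the aged pools and 0.938 to 1.04 between pools of different age. Over all genes these distances were 0.841, 0.911 and 0.964 to 1.07.

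**Figure D2:**
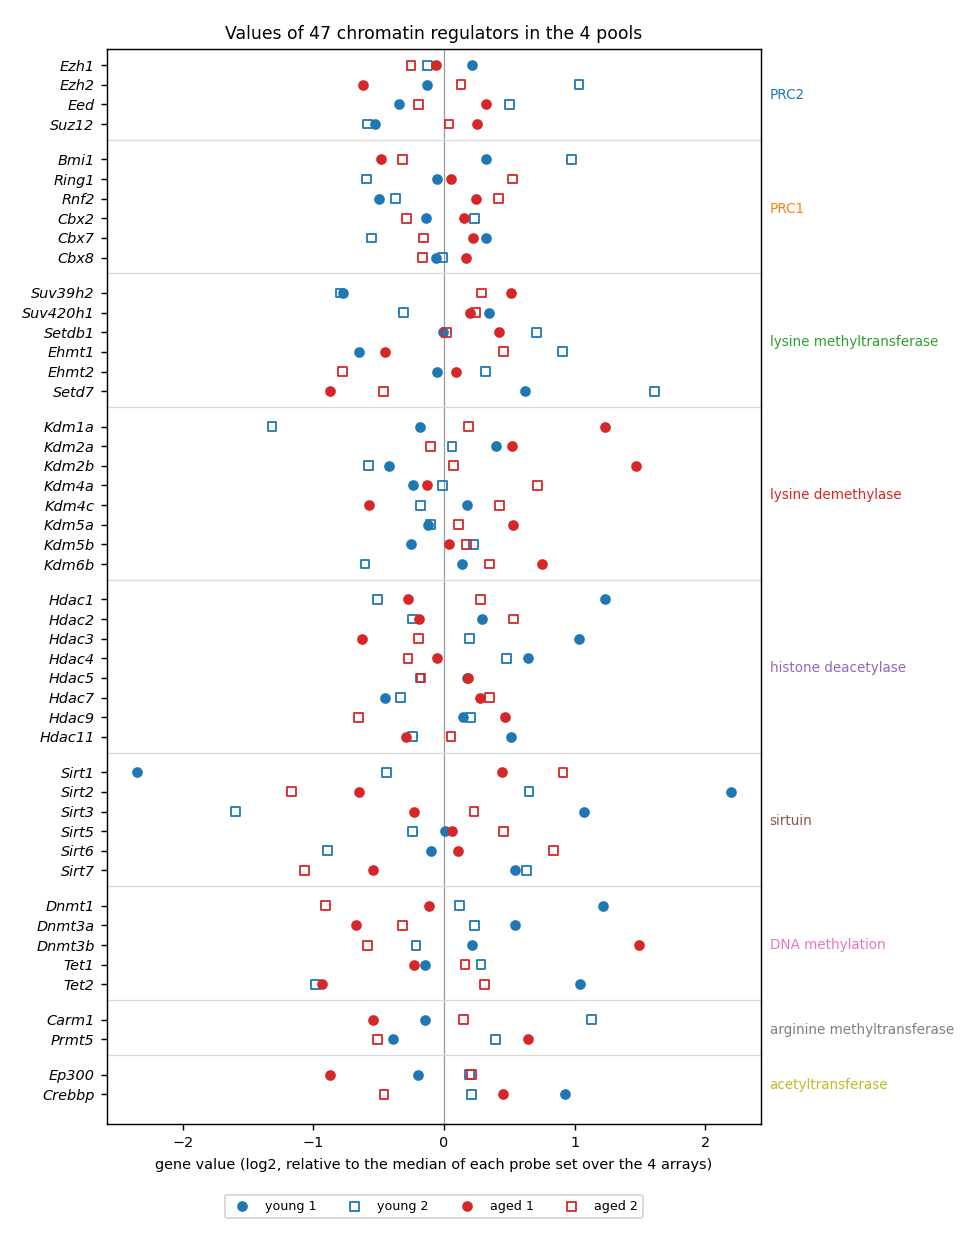
Value of each of the 47 genes (horizontal axis, log2, with each probe set's middle at 0) in the 4 pools, by enzyme class. Blue marks are young pools, red marks aged pools, filled circles number 1 and open squares number 2. Red and blue marks separate for 20 genes, among them Sirt1, Sirt2, Sirt7, Setd7 and Suv39h2, and mix for the rest.

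**Figure D3:**
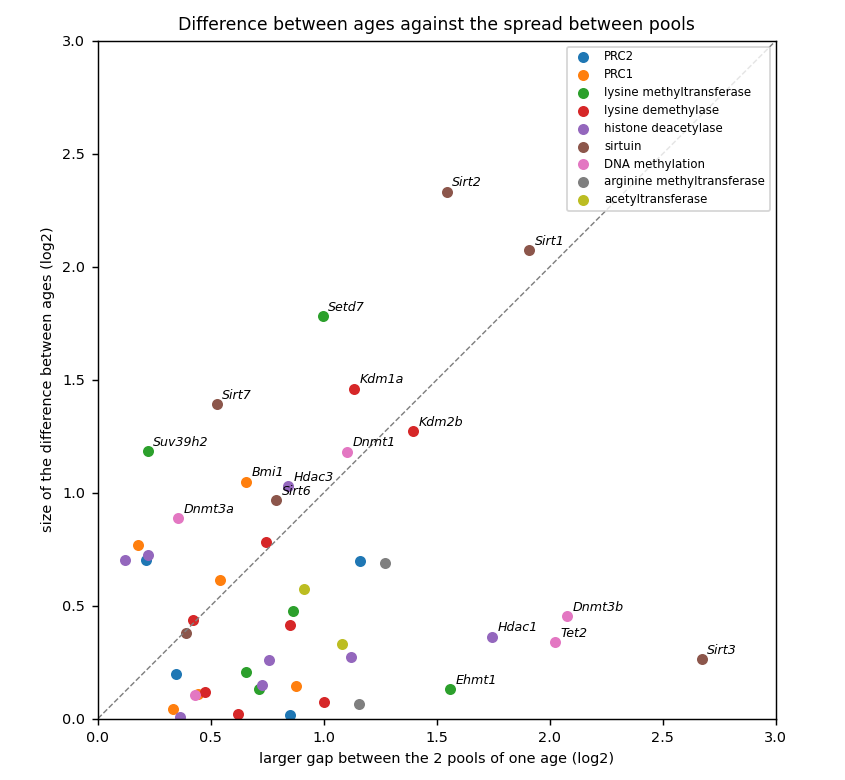
Size of the difference between ages (vertical axis, log2) against the larger of the gaps between the 2 pools of one age (horizontal axis, log2) for the 47 genes, coloured by class; the dashed line marks equality. The 29 genes below the line differ less between ages than between like pools, and Sirt3, with a gap of 2.67, lies farthest to the right.

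Over all 4 pools the sirtuins, deacetylases that need the cofactor NAD, held the largest difference in each direction. Sirt2, a mainly cytoplasmic member that also acts on chromatin in dividing cells, was 5.03-fold lower in aged pools. Sirt1, the nuclear member best known in muscle stem cells, was 4.21-fold higher, and Sirt7, a nucleolar member, was 2.62-fold lower. All 3 rest on 1 probe set each.

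Sirt2 stood at 2.19 and 0.65 in the young pools and at -0.65 and -1.17 in the aged pools. Both aged pools lay below both young pools, with young 1 far above the rest. The difference was -2.33 ± 0.60, with a 95% interval of -3.84 to -0.83 and an adjusted p of 0.306 (limma). Sirt1 stood at -2.35 and -0.44 in the young pools and at 0.44 and 0.91 in the aged pools. Here young 1 was the pool that stood far below, and the ages did not overlap. Its difference was 2.07 ± 0.69 (95% interval 0.36 to 3.79, adjusted p = 0.439). Sirt7 stood at 0.54 and 0.63 in the young pools and at -0.54 and -1.07 in the aged pools. The young pools were close to each other, and the difference was -1.39 ± 0.39 (95% interval -2.36 to -0.42, adjusted p = 0.343).

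Leaving out young replicate 1, which held the extremes of Sirt1 and Sirt2, gave differences of 1.12 for Sirt1 and -1.56 for Sirt2. Leaving out young replicate 2 moved them to 3.03 and -3.10. In these fits of 3 pools the unadjusted p of Sirt1 stayed under 0.05 without young replicate 2 and rose above it when young replicate 1, aged replicate 1 (2.31) or aged replicate 2 (1.84) was left out. For Sirt2 it rose above 0.05 without aged replicate 2 (-2.07), and for Sirt7 without young replicate 2 (-1.35) or aged replicate 2 (-1.13). The direction of each of these 3 genes held in all 4 fits. Their rank did not. Without young replicate 1, Setd7 (-2.28) lay below Sirt2. In that fit Kdm1a (2.03), Sirt3 (1.60), Sirt6 (1.36), Kdm6b (1.15), Kdm2b and Suv39h2 all lay above Sirt1. Without aged replicate 2, Kdm1a (1.98) and Kdm2b (1.97) lay above Sirt1. With the probe set of largest SD, Crebbp (-2.63) and Setd7 (-2.44) lay below Sirt2 and Suv39h2 (3.36) above Sirt1.

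Among the other sirtuins, Sirt6, a nuclear deacetylase tied to DNA repair, stood at -0.10 and -0.89 in young pools and at 0.10 and 0.84 in aged pools. The ages did not overlap, and its difference of 0.97 ± 0.48 had a 95% interval of -0.23 to 2.16. It came to 0.57 without young replicate 2 and 0.60 when aged replicate 2 was left out. Sirt5, a mitochondrial member, stood at 0.01 and -0.24 in young and 0.06 and 0.45 in aged pools, with a difference of 0.38 ± 0.38 (0.18 without aged replicate 2) and 3 of 3 probe sets higher. The probe set that gave 0.82 separated the ages, and those that gave 0.07 and 0.24 overlapped. Sirt3, the main mitochondrial deacetylase, ranged from -1.60 to 1.07 between the young pools alone, and its difference was 0.26 ± 0.89. Leaving out young replicate 1 gave 1.60, with an unadjusted p under 0.05, and leaving out young replicate 2 turned it to -1.07. Of the 6 sirtuins, 5 were without overlap (83.3%, against 36.8% of all genes), 3 higher and 2 lower in aged pools. The class median was 0.32, and -0.41 without young replicate 2.

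The promoters of the opposed pair Sirt1 and Sirt2 are shown because over all 4 pools the 2 genes had the largest positive and the largest negative difference of the 47, a rank that other settings change as given above. Each line gives the 250 bases before the annotated start, from RefSeq on GRCm38.p6, read along the gene from 5′ to 3′. Capitals mark 3 motifs searched on both strands, the GC box GGGCGG bound by Sp1-type factors, the CCAAT box and the myogenic E-box CAGCTG, and overlapping GC boxes are each counted. Sirt1 lies on the minus strand (chr10:63339036-63339285) and Sirt2 on the plus strand (chr7:28766502-28766751).
Sirt1: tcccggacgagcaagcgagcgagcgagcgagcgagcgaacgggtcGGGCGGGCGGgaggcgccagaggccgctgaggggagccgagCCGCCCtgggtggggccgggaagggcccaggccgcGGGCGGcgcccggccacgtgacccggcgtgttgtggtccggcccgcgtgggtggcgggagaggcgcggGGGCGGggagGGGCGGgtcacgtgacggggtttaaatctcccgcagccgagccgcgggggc
Sirt2: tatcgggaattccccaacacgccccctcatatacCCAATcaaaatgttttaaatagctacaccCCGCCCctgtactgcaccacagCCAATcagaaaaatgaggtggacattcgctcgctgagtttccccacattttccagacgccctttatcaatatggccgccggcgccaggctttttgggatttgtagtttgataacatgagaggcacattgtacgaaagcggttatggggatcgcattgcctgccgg
The Sirt1 window is 79.2% G or C with 39 CpG dinucleotides and 6 GC boxes, and that of Sirt2 is 50.0% G or C with 13 CpG, 1 GC box and 2 CCAAT boxes. Of the 47 genes, 40 had a promoter in the RefSeq table, with a median of 20 CpG, against 5 over 27025 promoters (1 per gene symbol). A GC box was found in 75% of the 40 and in 32.7% of all, a CCAAT box in 40% and 34.2%, and the myogenic E-box in 17.5% and 12.9%. These matches describe the sequence, and whether they bear on the differences between ages was not tested.

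Of the 6 histone lysine methyltransferases 2 were higher and 4 lower in aged pools. In each direction 1 had an unadjusted p under 0.05 (16.7% each way, against 2.85% of all genes higher and 6.19% lower). Setd7, which places a single methyl group on histone H3 and is known to act with MyoD at muscle genes, was 3.43-fold lower in aged pools. Suv39h2, which lays down the mark of constitutive heterochromatin, was 2.27-fold higher. Suv420h1, the methyltransferase linked to satellite cell quiescence, had no difference beyond its standard error.

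Setd7 stood at 0.62 and 1.61 in the young pools and at -0.87 and -0.46 in the aged pools, with no overlap. Its difference was -1.78 ± 0.48 (adjusted p = 0.324), and its 2 probe sets gave -2.44 and -1.12. Suv39h2 stood at -0.77 and -0.80 in the young pools and at 0.51 and 0.29 in the aged pools. Its difference was 1.18 ± 0.36 (adjusted p = 0.394). Its 3 probe sets did not point one way, with differences of 3.36, 1.16 and -0.97, each without overlap of the ages. In that order, the young pools stood at -1.29 and -2.26, at -1.52 and -0.23, and at 0.49 and 0.10. The young values of Suv39h2 were therefore close in the mean over probe sets and less so in single probe sets. The unadjusted p of Setd7 rose above 0.05 without young replicate 2 (-1.28) or aged replicate 1 (-1.57). That of Suv39h2 rose above 0.05 without young replicate 1 (1.20), young replicate 2 (1.17) or aged replicate 1 (1.07), and with the median of the probe sets (1.05).

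The remaining methyltransferases overlapped between ages, which left 2 of 6 without overlap (33.3%, against 36.8% of all genes). Suv420h1 stood at 0.34 and -0.31 in young and 0.20 and 0.24 in aged pools (0.20 ± 0.40), and of its 5 probe sets 2 were higher and 3 lower. The one of largest SD gave 1.89, with an unadjusted p under 0.05. The paralogues Ehmt1 and Ehmt2 form the complex that methylates histone H3 in silent euchromatin. Ehmt1 stood at -0.65 and 0.91 in young and -0.46 and 0.46 in aged pools (-0.13 ± 0.65). Ehmt2 stood at -0.05 and 0.32 in young and 0.09 and -0.78 in aged pools (-0.48 ± 0.45). Setdb1, which silences repeats and is known to restrain muscle genes, differed by -0.13 ± 0.43. The class median was -0.13, reaching 0.05 without young replicate 2, and 0.01 without aged replicate 2.

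The promoters of Suv39h2 and Setd7, the methyltransferases with the highest and the lowest difference, are printed in the same way, with the same capitals. Both genes lie on the minus strand, Suv39h2 at chr2:3474987-3475236 and Setd7 at chr3:51560824-51561073 (GRCm38.p6).
Suv39h2: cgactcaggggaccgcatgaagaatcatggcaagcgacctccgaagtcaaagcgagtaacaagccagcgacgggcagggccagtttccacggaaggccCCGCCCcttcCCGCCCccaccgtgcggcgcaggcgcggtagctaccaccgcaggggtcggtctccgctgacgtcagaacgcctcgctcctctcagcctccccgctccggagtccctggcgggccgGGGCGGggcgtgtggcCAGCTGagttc
Setd7: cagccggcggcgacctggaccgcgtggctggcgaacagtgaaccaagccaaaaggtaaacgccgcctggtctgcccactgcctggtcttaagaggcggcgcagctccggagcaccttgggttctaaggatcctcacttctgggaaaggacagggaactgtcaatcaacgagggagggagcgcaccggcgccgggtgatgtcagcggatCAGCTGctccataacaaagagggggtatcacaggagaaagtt
The Suv39h2 window is 69.6% G or C with 27 CpG, 3 GC boxes and 1 myogenic E-box. The Setd7 window is 60.4% G or C with 17 CpG, 0 GC boxes and 1 myogenic E-box. Neither holds a CCAAT box.

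Of the 8 listed histone demethylases, 6 were higher and 2 lower in aged pools. Kdm1a, Kdm2b, Kdm5a and Kdm6b, the 4 whose ages did not overlap (50%, against 36.8% of all genes, 19.9% with aged pools above), were higher. The 11 other demethylases measured were more even, with 6 higher, 5 lower and a median of 0.11. The median of the 8 was 0.42, above 0 under all 10 alternatives run (0.28 to 1.24), which reuse the same arrays. However, 1 member alone had an unadjusted p under 0.05 (12.5%, against 9.04% of all genes), and no test was made over the class.

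Kdm1a (LSD1), a flavin-dependent demethylase that acts in myogenic differentiation, stood at -0.18 and -1.32 in the young pools and at 1.23 and 0.18 in the aged pools. Each age spread by more than 1, and the difference of 1.46 ± 0.58 (2.75-fold) had a 95% interval of 0.01 to 2.91 and an adjusted p of 0.550. Its unadjusted p rose above 0.05 without young replicate 2 (0.89), without aged replicate 1 (0.94), without the probe set whose suffix (_s_at) marks matches to more than one transcript (1.02), with quantile normalization and with the median of the probe sets (both 1.46). Kdm2b, which recruits a variant polycomb complex to CpG islands, stood at -0.42 and -0.58 in young and 1.47 and 0.07 in aged pools. Its difference was 1.27 ± 0.55 (adjusted p = 0.595), with aged 1 far above aged 2 (0.57 without aged replicate 1 and 1.97 without aged replicate 2). Its unadjusted p fell under 0.05 without aged replicate 2, when its probe set with the suffix _s_at was dropped (1.26) and with a variance trend. Its 2 probe sets gave 1.26 and 1.28. The paralogue Kdm2a differed by -0.02 ± 0.41, with 7 probe sets from -1.46 to 1.87.

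Kdm6b (JMJD3), which removes the polycomb mark, stood at 0.14 and -0.61 in young and 0.75 and 0.35 in aged pools. The ages did not overlap, and the difference was 0.78 ± 0.44 (adjusted p = 0.723) with 3 of 3 probe sets higher, or 0.41 without young replicate 2. The single probe sets gave 0.03, 0.59 and 1.73, and the ages overlapped in each of them. Kdm5a, which demethylates active promoters, stood at -0.12 and -0.11 in young and 0.53 and 0.11 in aged pools. Its difference was 0.43 ± 0.38 without overlap (0.22 without aged replicate 1, 0.14 with the median of 6 probe sets). In each of these 6 probe sets the ages overlapped. The paralogue Kdm5b differed by 0.12 ± 0.38. Kdm4a and Kdm4c act on heterochromatin marks, and Kdm4a differed by 0.41 ± 0.44. Kdm4c, the lowest of the class over all 4 pools, stood at 0.18 and -0.18 in young and -0.57 and 0.43 in aged pools. Its difference of -0.07 ± 0.48 (adjusted p = 0.986) turned positive when young replicate 1 (0.11) or aged replicate 1 (0.43) was left out.

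**Figure D4:**
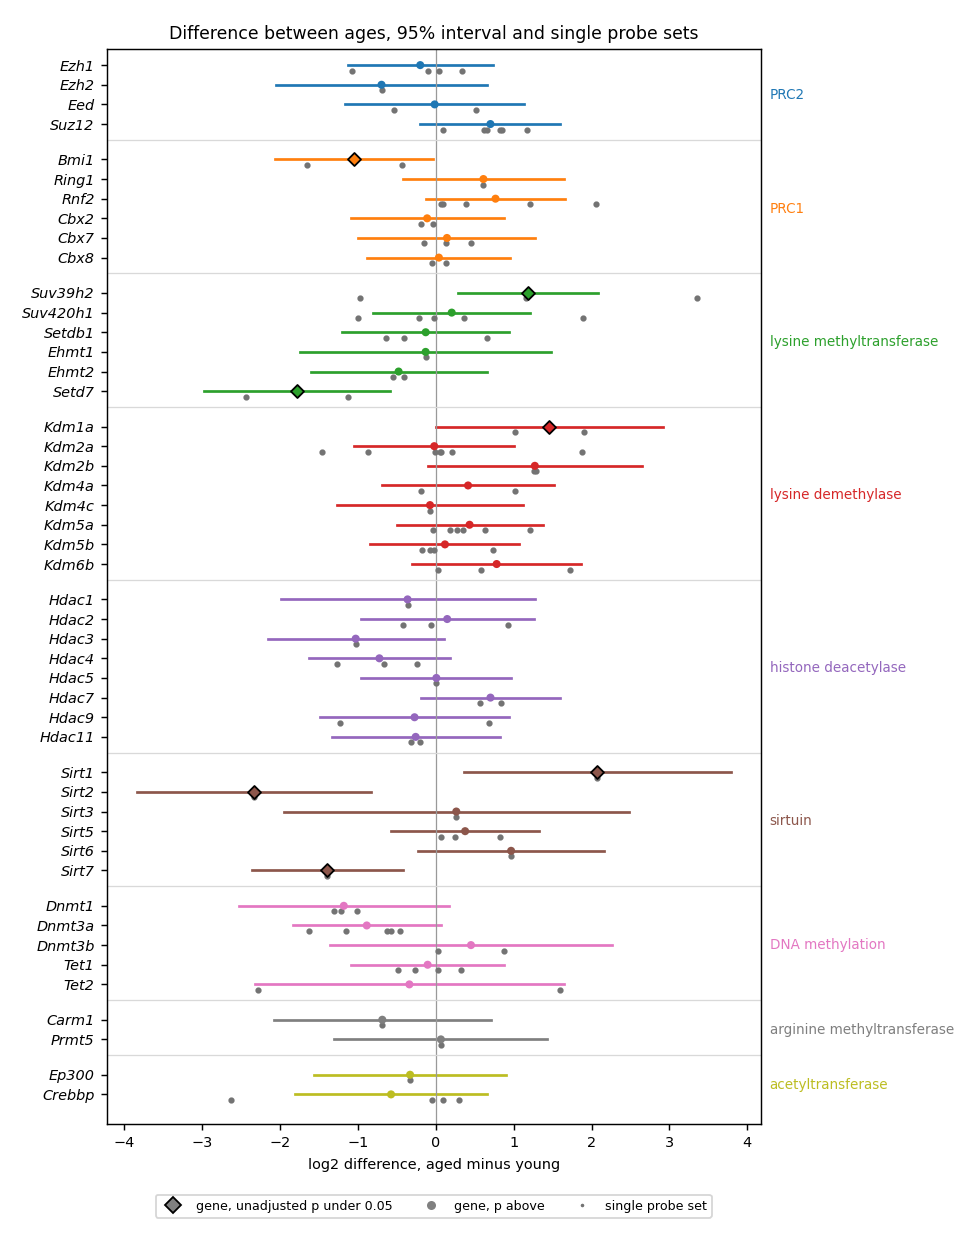
Log2 difference, aged minus young, for the 47 genes by enzyme class; large marks are genes with their 95% interval from the limma fit (diamonds where the unadjusted p is under 0.05), and small grey points below each are its single probe sets. The intervals of Bmi1, Suv39h2, Setd7, Kdm1a, Sirt1, Sirt2 and Sirt7 leave out 0, and the probe sets of Suv39h2, Tet2 and Crebbp spread far to one or both sides.

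Of the 5 listed DNA methylation enzymes, 4 were lower in aged pools. The median of the 5 was -0.34, below 0 under all 10 alternatives run (-1.15 to -0.25), which reuse the same arrays. That median is the value of Tet2 (-0.34 ± 0.80). Of the lower members, Tet1 (-0.10 ± 0.39) and Tet2 differed by less than their standard errors. The 8 other genes of DNA methylation that were measured lay mostly on the other side of 0, with 6 higher, 2 lower and a median of 0.14. Dnmt1, which copies methylation onto new DNA strands, and Dnmt3a, a de novo methyltransferase, were lower without overlap of the ages. They were 2 of 5 without overlap (40%, against 36.8% of all genes). In the fit over all 4 pools no member had an unadjusted p under 0.05 (against 9.04% of all genes). With a variance trend both Dnmt1 and Dnmt3a did, though that trend runs over centred values, which are not levels.

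Dnmt1 stood at 1.22 and 0.12 in the young pools and at -0.12 and -0.91 in the aged pools. The difference was -1.18 ± 0.54 (2.27-fold, adjusted p = 0.621), or -0.63 without young replicate 1 and -0.78 when aged replicate 2 was left out. Without young replicate 2 it was -1.73, with an unadjusted p under 0.05. Dnmt3a stood at 0.54 and 0.23 in the young pools and at -0.67 and -0.32 in the aged pools, a difference of -0.89 ± 0.38 (1.85-fold, adjusted p = 0.593), or -0.48 with the median of its probe sets. All 3 probe sets of Dnmt1 (-1.31 to -1.02) and all 5 of Dnmt3a (-1.63 to -0.45) were lower without overlap. Among 18 members with at least 3 probe sets these were the 2 (11.1%) in which every probe set separated the ages the same way, against 125 of 4315 genes (2.90%). Probe sets of 1 gene share their RNA and are no replicates, and over single probe sets the ages were apart in 31.6% of the members' 117 and in 34.6% of all named ones.

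Dnmt3b, the second de novo enzyme, did not separate the ages. It stood at 0.22 and -0.22 in young and at 1.49 and -0.59 in aged pools, so that the aged pools lay on both sides of the young ones (0.45 ± 0.73). Without aged replicate 2 it was 1.49, with an unadjusted p under 0.05. The dioxygenases Tet1 and Tet2 begin the removal of DNA methylation. Tet1 differed by -0.10 ± 0.39. Tet2 stood at 1.04 and -0.98 in young and -0.93 and 0.31 in aged pools (-0.34 ± 0.80), and its 2 probe sets gave -2.28 and 1.60. The test of a difference between Dnmt3a and Dnmt3b was not made.

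Of the 10 listed subunits of PRC1 and PRC2, 1 had an unadjusted p under 0.05 (against 9.04% of all genes), Bmi1. Bmi1 is a core subunit of PRC1, the complex that ubiquitinates histone H2A, and is known for restraining the Cdkn2a locus in stem cells. It stood at 0.32 and 0.97 in the young pools and at -0.49 and -0.32 in the aged pools. The ages did not overlap, and the difference was -1.05 ± 0.41 (2.07-fold lower, adjusted p = 0.532). Its 2 probe sets gave -1.66 without overlap and -0.44 with overlap. Its unadjusted p stayed under 0.05 without young replicate 1 (-1.37) and rose above it when young replicate 2 (-0.72), aged replicate 1 (-0.96) or aged replicate 2 (-1.13) was left out.

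The catalytic partners of Bmi1 stood on the other side of 0. Rnf2 (RING1B) stood at -0.50 and -0.38 in young and 0.24 and 0.42 in aged pools, a difference of 0.77 ± 0.36 (adjusted p = 0.631) with 5 of 5 probe sets higher. Its probe sets that gave 2.06 and 1.21 separated the ages, and the others overlapped. Ring1 stood at -0.05 and -0.60 in young and 0.05 and 0.52 in aged pools, a difference of 0.61 ± 0.41 (adjusted p = 0.802), or 0.34 without young replicate 2 and 0.38 when aged replicate 2 was left out. Both were without overlap of the ages. The unadjusted p of Rnf2 was under 0.05 when probe sets with the suffixes _s_at and _x_at were dropped (1.12) and with the probe set of largest SD (2.06), while the median of its probe sets gave 0.49. The chromodomain subunits that read the polycomb mark, Cbx2 (-0.11 ± 0.39), Cbx7 (0.14 ± 0.46) and Cbx8 (0.04 ± 0.37), differed by less than their standard errors. The PRC1 median was 0.09, and -0.09 without aged replicate 1.

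In PRC2, the complex that places the polycomb methyl mark, the scaffold Suz12 stood at -0.53 and -0.58 in young and 0.25 and 0.04 in aged pools. The ages did not overlap, and the difference was 0.70 ± 0.36 (adjusted p = 0.680), with 6 of 6 probe sets higher (0.09 to 1.17). The probe sets that gave 0.62 and 0.86 separated the ages, and the others overlapped. Young 1 stood at -1.62 in the probe set that gave 0.82, and young 2 at -2.70 in that which gave 1.17. Ezh2, the catalytic subunit of dividing progenitors, stood at -0.13 and 1.03 in young and -0.62 and 0.13 in aged pools. The ages overlapped, young 2 was high, and the difference of -0.70 ± 0.54 (adjusted p = 0.833) was -1.28 without young replicate 1 and -0.12 without young replicate 2. Its paralogue Ezh1, which prevails in resting and mature cells, stood at 0.21 and -0.13 in young and -0.06 and -0.25 in aged pools (-0.20 ± 0.37). The subunit Eed differed by -0.01 ± 0.46. The PRC2 median was -0.11, and 0.15 without young replicate 2 and 0.07 without aged replicate 2.

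Over all 4 pools none of the 8 listed classical histone deacetylases had an unadjusted p under 0.05 (limma, against 9.04% of all genes). Of 8, 5 were lower and 3 higher in aged pools, with a class median of -0.27 that was 0.15 without young replicate 1. Among the class I enzymes, which act in nuclear corepressor complexes, Hdac3 stood at 1.04 and 0.19 in young and -0.63 and -0.19 in aged pools. The ages did not overlap, the difference was -1.03 ± 0.45 (2.04-fold, adjusted p = 0.603), and it was -0.61 without young replicate 1. Without young replicate 2 it was -1.45, with an unadjusted p under 0.05. Hdac1 and Hdac2, close paralogues, both overlapped. Hdac1 stood at 1.23 and -0.51 in young and -0.28 and 0.28 in aged pools (-0.36 ± 0.65), and Hdac2 differed by 0.15 ± 0.44.

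The class IIa enzymes bind MEF2 factors and restrain muscle genes, and their 4 paralogues fell on both sides of 0. Hdac4 stood at 0.64 and 0.47 in young and -0.05 and -0.28 in aged pools, a difference of -0.72 ± 0.36 (adjusted p = 0.667) without overlap and with 3 of 3 probe sets lower, or -0.25 with their median. Hdac7, the member known from endothelial cells and thymocytes, stood at -0.45 and -0.33 in young and 0.27 and 0.34 in aged pools, a difference of 0.70 ± 0.36 (adjusted p = 0.674) without overlap. Beside it, 8 of 10 endothelial markers were lower in aged pools (median -0.43), and 6 of 7 T and NK cell markers were higher, among them Cd3d (4.11) and Cd3g (4.15), with Gzma lower (-3.90). Their part in the difference of Hdac7 was not tested. In the mean over probe sets, pools of 1 age lay within 0.221 of each other for Hdac4 and within 0.121 for Hdac7. They lay wider apart in the single probe sets. For Hdac4 the young pools stood at 0.24 and 1.78 in the probe set that gave -1.27, the sole probe set without overlap. They stood at 1.47 and -0.15 in that which gave -0.66. For Hdac7 they stood at -0.61 and -0.14 in the probe set that gave 0.57, and both its probe sets were without overlap. Hdac5 stood at 0.18 and -0.18 in young and 0.18 and -0.18 in aged pools, a difference of 0.01 ± 0.39. Hdac9 stood at 0.15 and 0.20 in young and 0.46 and -0.66 in aged pools (-0.27 ± 0.49). Hdac11, the only class IV enzyme, differed by -0.26 ± 0.43. The differences between these paralogues were not tested.

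Both acetyltransferases and both arginine methyltransferases overlapped between ages, while the ages did not overlap in 36.8% of all genes. Ep300 stood at -0.20 and 0.20 in young and -0.87 and 0.21 in aged pools (-0.33 ± 0.49). Its paralogue Crebbp, likewise a coactivator, stood at 0.93 and 0.21 in young and 0.45 and -0.46 in aged pools (-0.57 ± 0.50). Of the 4 probe sets of Crebbp, 1 gave -2.63, with 4.35 in young 1, and the other 3 ran from -0.05 to 0.29. Carm1, which methylates Pax7 in satellite cells, stood at -0.15 and 1.13 in young and -0.54 and 0.15 in aged pools. Its difference was -0.69 ± 0.56 (adjusted p = 0.840), and -0.05 without young replicate 2. Prmt5, which supports satellite cell expansion, stood at -0.39 and 0.39 in young and 0.64 and -0.51 in aged pools (0.07 ± 0.55). The class medians were -0.45 for the acetyltransferases and -0.31 for the arginine methyltransferases, the latter 0.20 without young replicate 2. For the acetyltransferases it was -0.16 with the median of the probe sets, where Crebbp differed by 0.01. With the probe set of largest SD it was -1.48.

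Other genes of the same machinery were listed for comparison, 79 in all, of which 73 were measured. At an unadjusted p under 0.05 there were 11 of 73 (15.1%, against 9.04% of all genes), 5 higher and 6 lower, and 0 passed the adjusted threshold with limma. The median difference was 0.14, with 44 higher and 29 lower. By class, the other lysine methyltransferases had 12 of 18 lower (median -0.37), while 6 of 7 of PRC2 (0.38), 7 of 11 of PRC1 (0.14), 5 of 6 arginine methyltransferases (0.36) and 6 of 8 acetyltransferases (0.34) were higher. Their number dropped to 5 without young replicate 1, to 6 when young replicate 2 was left out and to 7 with the median of the probe sets. The lowest was Smyd2, a lysine methyltransferase found in heart and skeletal muscle, at 2.20 and 1.58 in young and -1.58 and -2.11 in aged pools (-3.73 ± 0.43, adjusted p = 0.0998). Smyd1, its striated muscle relative, stood at 1.21 and 0.88 in young and -1.02 and -0.78 in aged pools (-1.94 ± 0.37). Both moved beside the fibre markers, of which 16 of 16 were lower, and the part of fibre RNA in their differences was not tested. The polycomb genes Phc1 (-2.20 ± 0.50) and Yaf2 (-1.41 ± 0.36) were next by p among the lower ones. Among the higher ones the smallest p-values were those of the demethylases Kdm4b (1.41 ± 0.47) and Kdm6a (1.37 ± 0.51), the arginine methyltransferase Prmt2 (1.67 ± 0.58) and the PRC1 subunit Pcgf6 (1.12 ± 0.40).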

How the data were processed

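Per the labels, pool RNA was amplified by T7 transcription in 2 rounds, labelled with biotin and read on Affymetrix arrays. The table that the authors deposited holds 45101 probe sets, and its values are treated as log2. Row medians are 0 within 5e-07, so values are relative and no filter on dim genes could be applied. The base of the logarithm, background correction, probe summary and normalization were not given in the sources used here. With another base the folds would change and p-values would not. That higher values mean more RNA is assumed.

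Probe sets with 1 gene symbol (34945, updated by Entrez ID to GRCm38.p6 where possible) were averaged per gene, and those with several symbols or none were left out. Aged minus young was fitted in limma 3.58.1 under R 4.3.3 (eBayes without trend, two-sided, 2 residual and 3.56 prior degrees of freedom), with Benjamini-Hochberg adjustment over all 18193 genes. The number of arrays limits the precision. Figures were drawn with matplotlib 3.10.9.

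The 47 genes, their classes and all gene lists were chosen with earlier results of these data known. Every pool's value is given for members with an unadjusted p under 0.05, the highest and lowest of each class and 12 chosen by name. Others were added for separation of the ages or as paralogues, after their values were seen. Of other chromatin genes, up to 4 per direction with the smallest p are named. Alternatives were quantile normalization, other ways from probe sets to genes, the replicate block, a variance trend and leaving out each pool. The fit as reported has no trend because the values are centred per probe set, so their mean is not a level.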

Additional observations from a re-analysis of the deposited data

How the results depend on the processing

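The count of members passing an adjusted p of 0.05 with limma was 0 under all 10 alternatives, including the variance trend, which called 221 of all genes, and beside 7 members at an unadjusted p under 0.05 in the fit as reported. Leaving out 1 pool moved the 4 lower members to between 1 and 4, the 3 higher members to between 0 and 4, the members' median difference to between -0.12 and 0.11, and the 11 other chromatin genes to between 5 and 10. These fits have 1 residual degree of freedom and assume that a lone pool varies like the others. With the median of the probe sets there was 1 higher member and 7 other chromatin genes, and with the probe set of largest SD there were 5 higher members. The cause was not tested. Replicate numbers are shared between ages, but nothing says that they mark a shared batch. The deviations of young 1 and aged 1 from their age means correlated at 0.138 over 18193 genes, and with 2 pairs this does not show pairing. With the replicate block there were 5 lower members, Dnmt1 being the one gained, 3 higher members and 10 other chromatin genes, and the differences were those of the fit without it, by construction of a balanced design. Differences changed sign in 1 member with quantile normalization, in 4 with the median of the probe sets, in 4 with the probe set of largest SD, in 2 without probe sets suffixed _s_at or _x_at and in 7 to 10 without 1 pool, and none of these was among the 7. Without those suffixes 44 members were left, since Carm1, Hdac3 and Prmt5 have no other probe sets. With 2 pools per age and centred values, signal over background could not be assessed.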

Other observations

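One probe set names Kdm6b together with a second gene, 1700064E03Rik, and was left out of the gene values. It stood at -0.09 and -0.11 in young and at 0.09 and 0.12 in aged pools, a difference of 0.21. It pointed the same way as the 3 probe sets of Kdm6b alone, in each of which the ages overlapped.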
